A study of Mus musculus with 3 samples.

Results

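The genes described here are the long intergenic noncoding RNAs (lincRNAs) that were detected throughout the RNA-seq data of activated regulatory T cells. They were chosen by their measured level. A gene was taken if GENCODE M21 types it as lincRNA and if its deposited TPM (a length-corrected level, scaled to the same total in each library) was at least 1 in each of the 3 libraries. Malat1, Neat1, Gas5 and genes with names starting with Snhg were left out, which removed 6 genes (Malat1, Neat1, Snhg6, Snhg10, Snhg12 and Snhg20) of 272. The choice left 266 of 5854 annotated lincRNA genes, 4.54%, among 55536 annotated genes in all. Protein-coding genes reached the same level in 10429 of 22028 cases, 47.3%. A further 126 lincRNA genes reached 1 TPM in 1 or 2 libraries, and 3467 were listed at 0 in every library.

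The material was polyA-selected RNA of activated regulatory T cells, taken as primary cells from a male mouse aged 9 weeks. The 3 libraries are labelled technical replicates 1, 2 and 3 of a single biological replicate, so each SD below (n = 3) measures technical spread. The labels give neither strain nor genotype, nor how the cells were activated and purified. With 1 group in the series, no condition was compared with another.

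A lincRNA is transcribed from its own locus between coding genes, is usually capped, spliced and polyadenylated like an mRNA, and has no long open reading frame. Many lincRNAs stay near their site of transcription and are short-lived, because the nuclear exosome degrades them. Some act on a neighbouring gene in cis, some serve as precursors of miRNAs, and a few bind proteins or miRNAs in trans. In T cells, lincRNAs near cytokine, transcription factor and survival genes have been studied most.

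The libraries held 31445344, 32612609 and 37259281 expected counts (estimated read counts, in which a read that matches several genes is split). Markers of T cells (Cd3e, Cd3g, Cd2, Lck and Cd4) had mean levels from 394 to 1322 TPM, and those of regulatory T cells (Foxp3, Il2ra, Ctla4 and Ikzf2) from 135 to 389 TPM. Of the lists for other cells, 4 of 4 erythroid markers were detected in all 3 libraries, with summed levels of 520, 369 and 412 TPM. Both CD8 T cell markers were detected as well, Cd8b1 at 21.4 and Cd8a at 1.64 TPM (summed level 22.0 to 24.4 TPM). For B cells 4 of 5 markers were detected (summed level 36.7 to 50.9 TPM, with Pax5 at 0.0867), and for macrophages 3 of 5 (38.9 to 44.2 TPM). None of 4 granulocyte markers reached 1 TPM in all libraries, and their summed level was 18.99, 0.55 and 0.92 TPM. None of 3 stroma and 2 endothelium markers did so either. The part of these cells in the lincRNA levels was not tested, and fewer cells of a type cannot be told apart from less RNA per cell.

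Several of the 266 transcripts carry sequences with a known partner or product, and those that the results turn on are shown first. RefSeq (build GRCm38.p6) places 6 miRNA genes with 10 mature miRNAs inside 5 of the lincRNA genes on the same strand. The mature sequences below, with the seed (bases 2 to 8) in capitals, come from the hosts Mir155hg, Mir142hg, E130102H24Rik and Ftx, whose levels are given further on. The 10 mature miRNAs have 10 distinct seeds, so no 2 of them share one.
mmu-miR-155-5p: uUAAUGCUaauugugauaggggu
mmu-miR-155-3p: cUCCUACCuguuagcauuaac
mmu-miR-142a-5p: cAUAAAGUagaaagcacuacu
mmu-miR-142a-3p: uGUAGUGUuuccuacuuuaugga
mmu-miR-101a-3p: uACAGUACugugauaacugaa
mmu-miR-421-5p: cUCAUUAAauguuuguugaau

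Norad, listed in GENCODE M21 as 2900097C17Rik, is known as a cytoplasmic RNA that binds the Pumilio proteins. Its leading transcript of 4915 bases held 11 copies of the Pumilio element TGTANATA (sense strand only, any base at N), a density of 2.24 per kb. The next highest number in any of the 266 leading transcripts was 2. By density Norad was not the highest, since 4 leading transcripts of at most 334 bases had 1 element each, which is 2.99 to 3.97 per kb. Over all leading transcripts the density was 0.143 per kb in the lincRNAs and 0.111 per kb in detected coding genes. An element was present in 42 lincRNAs, 15.8%, against 22.0% of the coding transcripts, which are longer. In 4 of the 11 copies the element was followed within 8 bases by GGACAA, and these 4 windows are shown with the element in capitals and named by its first base.
Norad 1523: gactgctgTGTATATAgtggacaa
Norad 1829: gtgtatacTGTATATAatggacaa
Norad 2451: gtatatatTGTACATActggacaa
Norad 2754: tactactaTGTATATAggggacaa

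Cyrano (1700020I14Rik, RefSeq Oip5os1) is known for a long stretch of pairing with miR-7 that leads to decay of that miRNA. The stretch lies at bases 2934 to 2959 of transcript 1700020I14Rik-202, which has 8300 bases. It is printed with the seed match in capitals beside the miRNA, whose seed is in capitals.
Cyrano site: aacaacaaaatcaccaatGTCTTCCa
mmu-miR-7a-5p: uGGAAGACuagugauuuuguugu

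The shorter transcript 1700020I14Rik-201, of 1381 bases, lacks this stretch. Another seed match lies at bases 581 to 606 of the short transcript and at 744 to 769 of the long one. By TPM it was the leading transcript, with 68.1% ± 4.26 of the gene's level (SD, n = 3), against 31.9% for the long transcript. By expected counts, which are not corrected for length, the long transcript took 74.2%. The same letters of the seed match occurred in the leading transcripts of 34 of the 266 genes, and a match is a description and not a site.

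Levels spanned from 1.04 to 2609 TPM, with a median of 4.05 TPM and quartiles of 2.18 and 8.27. Detected coding genes, chosen by the same minimum, had a median of 29.2 TPM. By mean level, 6 of the lincRNA genes were at 100 TPM or more, 52 between 10 and 100, 55 between 5 and 10, 97 between 2 and 5, and 56 between 1 and 2. The summed level was 6709, 6810 and 6712 TPM in libraries 1, 2 and 3 (mean 6743 ± 57.6). These genes took 0.614% ± 0.0145 of the annotated expected counts. The leading pair, AW112010 and Gm26917, made up 59.6% ± 0.0810 of the summed TPM, and the other genes together had 2727 ± 22.0 TPM.

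**Figure D1:**
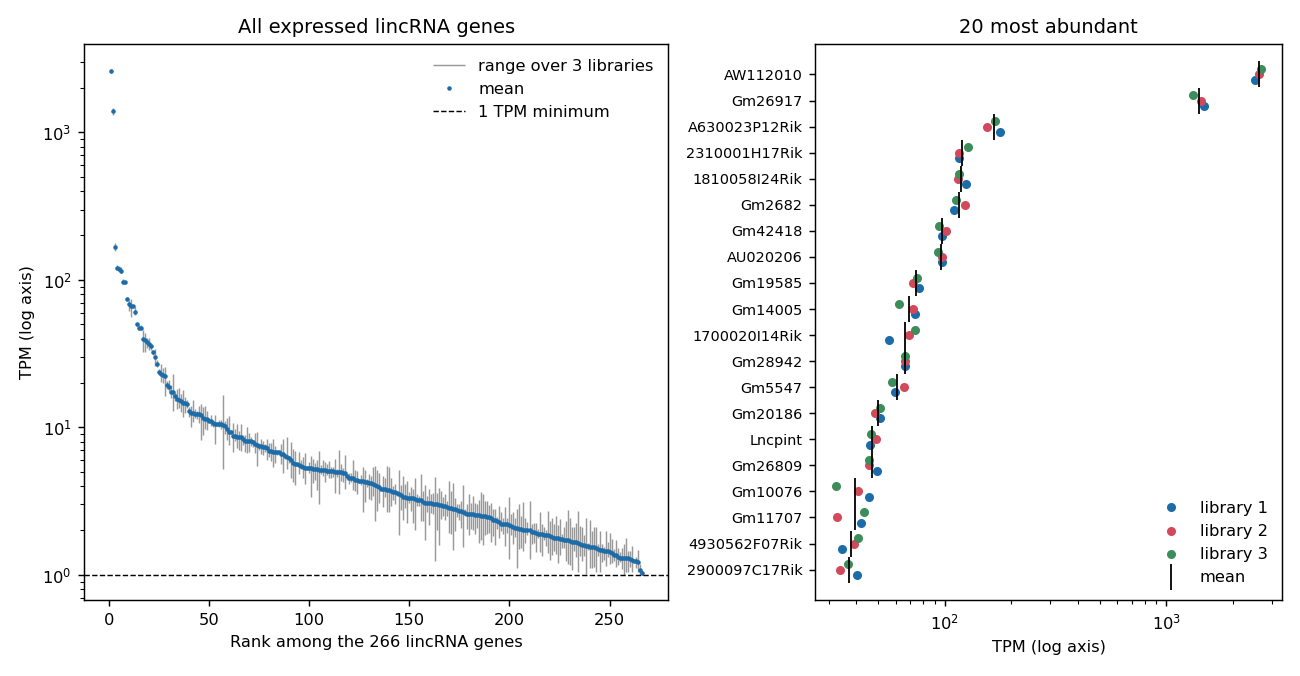
Left, mean TPM (points, log axis) of the 266 lincRNA genes by rank with the range over the 3 libraries (lines) and the 1 TPM minimum (dashed). Right, TPM of the 20 most abundant in each library (coloured points) and their mean (bars). AW112010 and Gm26917 stand above 1000 TPM, and the next, A630023P12Rik, is at 167 TPM.

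AW112010 was the most abundant, at 2516, 2630 and 2681 TPM. It is an inflammation- and interferon-induced RNA of T cells and macrophages from which a short peptide is known to be translated in macrophages. Its mean of 2609 ± 84.4 TPM was above that of each of the 5 T cell markers. The gene lies on chromosome 19 at 11047612 to 11055808 (mm10, minus strand), and transcript AW112010-202 held 98.2% of its level.

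Gm26917, at 1474, 1428 and 1321 TPM, took the most expected counts of the 266, with a mean of 97403. It lies on chromosome 17 at 39843013 to 39846341 on the plus strand. RefSeq annotates the ribosomal RNA pseudogene Rn18s-rs5 at 39846354 to 39848202 on that chromosome, 13 bases after the end of Gm26917. Gm42418, at 97.2, 101 and 94.1 TPM, overlaps the same pseudogene by 1245 bases. Their coefficients of variation (SD over mean) were 5.57% and 3.66%, and Gm26917 was highest in library 1 and lowest in library 3, a difference tested further on. Without this pair the summed level was 5238 TPM, an alternative added after the data were seen. Whether their reads come from ribosomal RNA was not tested.

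A630023P12Rik had 177, 156 and 169 TPM, and 2310001H17Rik, near the lectin receptor gene Clec2d, had 116, 117 and 127 TPM. 1810058I24Rik had 125, 114 and 116 TPM. RefSeq types it as protein coding, and it is known to encode a small mitochondrial protein. Gm2682 had 111, 123 and 113 TPM, and AU020206, beside the signalling anchor gene Akap13, had 97.6, 97.7 and 93.5 TPM. No pair among 2310001H17Rik, 1810058I24Rik and Gm2682 was separated by more than their spread, since their ranges over the libraries overlap. AU020206 and Gm42418 overlap in the same way.

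The next group by level holds several genes with known roles. Gm19585, 153125 bases from the chromatin organiser gene Satb1, had 76.3, 71.9 and 74.95 TPM. Gm14005, which RefSeq names Morrbid and which is known to restrain the death gene Bcl2l11 in myeloid cells, had 73.3, 72.0 and 62.0 TPM. Cyrano had 55.9, 69.2 and 73.7 TPM, with library 1 the lowest. Lncpint, a target of p53, had 45.9, 49.1 and 46.7 TPM, and Norad had 40.3, 33.6 and 36.8 TPM. The ranges of Gm14005 and Cyrano overlap, so the order of this pair is not settled by the libraries, while Lncpint was above Norad in each library.

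The other genes of the leading 20 were Gm28942, Gm5547, Gm20186, Gm26809, Gm10076, Gm11707 and 4930562F07Rik, with means from 38.0 to 66.2 TPM. Gm20186 and Gm26809 share 855 exonic bases on opposite strands beside Lsm8, which encodes a subunit of the U6 snRNA-binding ring. Gm20186 had 51.1, 48.6 and 50.9 TPM and Gm26809 had 49.5, 45.4 and 45.7 TPM. Those bases are part of 1050 exonic bases in Gm20186 and 2981 in Gm26809, and the authors' posterior SD, a measure of how uncertain the split of shared reads is, was 3.97% and 1.01% of the count. Gm10076, a pseudogene in RefSeq, had 45.6, 40.4 and 32.5 TPM. Its posterior SD came to 15.2% of the count.

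Across the 266 genes, 173 share no exonic base with another gene and 93 share some. The posterior SD was 0 in 132 genes and above 10% of the count in 22. RefSeq matched 141 by name or synonym, on the same chromosome with an overlapping span. It types 122 of these as lncRNA, 13 as protein coding, 3 as pseudogene and 3 as transcribed pseudogene, so the GENCODE type is not shared by both annotations in 19 of 141.

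At the selection limit, the 3 genes just inside were Gm49782 (1.07, 1.00 and 1.04 TPM), 2810455O05Rik (1.63, 1.00 and 1.28 TPM) and Gm27010 (1.01, 1.31 and 2.42 TPM). Just outside were 5830405F06Rik (1.59, 1.65 and 0.96 TPM), Gm44899 (1.05, 1.69 and 0.97 TPM) and Gm26624 (0.97, 1.26 and 1.13 TPM). Gm49782 had 6, 6 and 7 expected counts, while Gm26624 had 70, 97 and 98. In that zone the minimum therefore admitted a short gene on few reads and left out a longer gene with more reads. Fewer than 10 counts in a library were behind 8 of the 266 genes, and the median gene had a mean of 108 counts.

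A list of well-known long noncoding RNAs was read next. GENCODE M21 holds 30 gene entries of the list as lincRNA, of which 13 were expressed by the rule and 17 were not. Those expressed were Norad, Cyrano, Morrbid, Lncpint, Lockd, Pvt1, Mir142hg, Mir155hg, Mirt1, Epb41l4aos, Ftx, Jpx and Ifngas1. H19 and Hottip were listed at 0 in all 3 libraries, Hotair at 0.05, 0 and 0 TPM, and Meg3 at 0, 0.09 and 0 TPM. Miat, at 0.48, 0.83 and 1.07 TPM, and Mir17hg, host of the miR-17 to miR-92 cluster, at 0.80, 1.37 and 0.58 TPM, crossed 1 TPM in 1 library each. Tug1, Zfas1 and Flicr are typed otherwise by GENCODE and so were not eligible. Flicr, a regulator of Foxp3 in regulatory T cells, was at 17.01, 17.7 and 18.1 TPM.

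Lockd, downstream of the cell cycle inhibitor gene Cdkn1b, had 31.0, 32.5 and 33.4 TPM, and Cdkn1b had 28.2 ± 1.67 TPM. Pvt1, downstream of Myc, had 20.5, 18.2 and 19.1 TPM against 93.8 ± 6.46 TPM for Myc. Mirt1 had 12.9, 13.0 and 11.4 TPM and Epb41l4aos 7.46, 6.66 and 9.14 TPM. Ftx and Jpx, neighbours of Xist in the X inactivation centre, had 4.36, 3.53 and 7.06 TPM and 3.87, 1.60 and 3.47 TPM. Ifngas1, an RNA known to raise Ifng in T cells, had 3.50, 4.06 and 1.72 TPM, below Ifng itself at 8.13 ± 0.704 TPM. The ranges of Ftx, Jpx and Ifngas1 overlap.

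The miRNA hosts were read as polyadenylated host RNA, which is no measure of the mature miRNAs shown above. Mir142hg, host of the blood-cell miRNA miR-142, had 11.7, 14.5 and 17.9 TPM. Mir155hg, host of miR-155, which supports regulatory T cell fitness, had 7.02, 7.87 and 7.44 TPM. 2900076A07Rik, which carries miR-1839 in an exon, had 25.2, 22.5 and 19.98 TPM, and E130102H24Rik, with miR-101a in an exon, had 1.55, 1.86 and 1.35 TPM. Ftx holds miR-421 and miR-374b in an intron. The levels of 2900076A07Rik and E130102H24Rik did not overlap those of any other host, while those of Ftx and Mir155hg met at the 7.06 TPM of Ftx in library 3. Drosha and Dgcr8, which cut miRNA hairpins out of such hosts, had 15.9 ± 0.662 and 17.6 ± 1.53 TPM.

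Proteins that process, degrade or bind long noncoding RNAs were read from a list of 36 genes, and 36 were detected in all 3 libraries. Their median was 59.5 TPM, from 12.3 TPM for Pum2 to 1576 TPM for Hnrnpk, which encodes a nuclear RNA-binding protein. Pum2 had 13.0, 12.8 and 10.95 TPM. Among exosome genes, Exosc10 had 76.4 ± 7.04 TPM and Dis3 19.7 ± 3.49 TPM. The exosome helicase gene Mtrex had 57.2 ± 3.52 TPM, and Zfc3h1 of its nuclear adaptor complex had 31.6 ± 1.84 TPM. As the whole list is of housekeeping kind, its detection is a description and says nothing particular to lincRNAs.

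The nearest protein-coding gene of each lincRNA, by distance between gene bodies on mm10, was compared next. The choice of the 266 genes did not use these values directly. Of the 266, 93 share exonic bases with another gene. Where that gene is the neighbour, the levels of both may not be independent, which was not tested. The neighbours had a median of 22.6 TPM (SD of the median over libraries 0.411), and 202 of 266, 75.9%, were at 1 TPM or more in all 3 libraries. For the other 5588 lincRNA genes the neighbours' median was 0.27 TPM and 42.6% were detected, and over all coding genes 47.3% were. Loci are not replicates, so these shares are given as a description without a test over genes. The 266 genes have 246 distinct neighbours, 16 of which serve more than 1 lincRNA.

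Distances to coding genes also differed. The median distance of the expressed lincRNAs was 3047 bases, against 47373 bases for the other lincRNAs. A neighbour lay within 1 kb, overlaps included, in 112 cases, 42.1%, against 12.9%, and within 10 kb in 59.8% against 25.9%. Set side by side at matched distance, the shares of detected neighbours were the following. In the range from 1 base to 1 kb, 33 of 35 neighbours were detected (94.3%) against 188 of 304 (61.8%), and among overlapping neighbours 62 of 77 (80.5%) against 163 of 419 (38.9%). From 1 to 10 kb they were 37 of 47 (78.7%) and 348 of 723 (48.1%). From 10 to 100 kb the shares were 68.7% and 45.3%, and beyond 100 kb they were 13 of 24 (54.2%) and 34.7%.

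**Figure D2:**
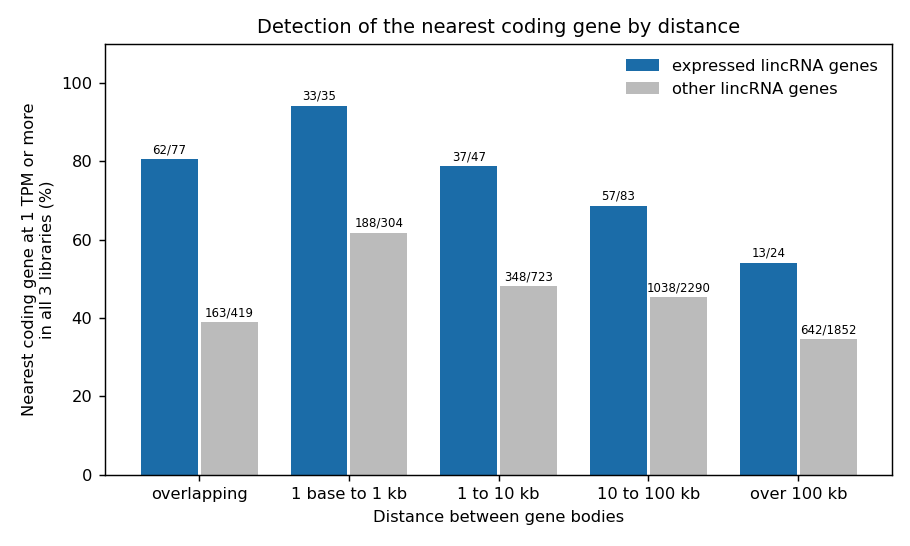
Share of nearest coding genes at 1 TPM or more in all 3 libraries (%), by distance between gene bodies, for the 266 expressed lincRNA genes (blue) and the other lincRNA genes (grey), with the counts above the bars. In each distance range the blue bar is the higher, from 94.3% at 1 base to 1 kb, overlaps left out, to 54.2% beyond 100 kb.

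By arrangement, 62 of the lincRNAs (23.3%) overlapped a coding gene on the opposite strand, against 6.07% of the others, and 15 (5.64%) overlapped one on the same strand, against 1.43%. Head to head placement held 63, tail to tail 31, upstream on the same strand 48 and downstream on the same strand 47. Of the 62 on the opposite strand, 45 share exonic bases with another gene, which make up a median of 30.4% of their exonic bases (1.31% to 100%). No source says if reads were counted by strand, so within the shared bases the reads of the overlapping genes cannot be told apart. Of the genes downstream on the same strand, 16 lay within 5 kb of the coding gene's end, where 15 of the coding genes were detected at a median of 36.8 TPM. Reads that run on past the coding gene were not tested there. The neighbour of 5 lincRNAs is Gm20388, an annotated gene that spans 4434882 bases and was at 4.12 TPM.

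The levels of lincRNA and neighbour had a rank correlation near 0. The neighbour was the more abundant in 180 of 266 pairs, by more than 10-fold in 94, and the lincRNA was more than 10-fold above its neighbour in 50. Across the 246 pairs whose neighbour had a mean above 0 TPM, Spearman's rho was -0.049 and Pearson's r of the log2 levels -0.10. These values used the mean TPM over the same libraries, and a neighbour that serves several lincRNAs was kept for each. Over 93 of these pairs beyond 10 kb the rho was 0.035. The choice of lincRNAs at 1 TPM or more narrows the range of their levels in these values.

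**Figure D3:**
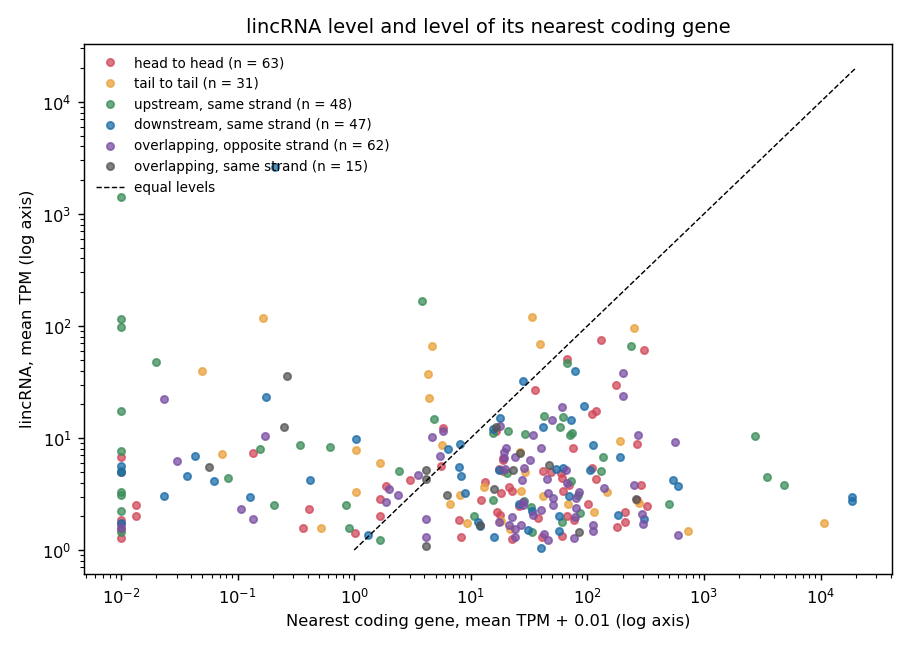
Mean TPM of each of the 266 lincRNA genes (vertical, log axis) against mean TPM + 0.01 of its nearest coding gene (horizontal, log axis), coloured by arrangement, with a dashed line at equal levels. Of the 266 points 180 lie where the coding gene is higher, and the 6 lincRNAs at 100 TPM or more lie above the line of equal levels.

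On the log2 scale, AW112010 stood furthest above its neighbour, by 13.75 ± 0.57 over the membrane gene Ms4a8a, which had 0.15, 0.30 and 0.15 TPM. 1810058I24Rik stood 9.79 ± 1.01 above the transporter gene Slc13a4, Gm26880 8.27 ± 0.09 above Zfp981, Gm13166 7.61 ± 1.47 above Zfp600 and 1300002E11Rik 7.12 ± 0.30 above the kinase gene Map3k13. Neighbours at 0 in a library gave no ratio. At the other end, Gm15232 and Gm8817 had -12.74 ± 0.11 and -12.64 ± 0.37 against Tmsb4x, the thymosin gene, which was at 17931, 18929 and 19014 TPM. CR974462.6 had -12.64 ± 0.38 against the MHC class I gene H2-K1, Gm12319 -10.39 ± 0.54 against the profilin gene Pfn1 and Gm39556 -9.62 ± 0.37 against Ly6e. Gm15232 (2.45, 3.02 and 2.74 TPM) and Gm8817 (3.72, 2.38 and 2.82 TPM) lie 105003 and 136713 bases from Tmsb4x.

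Genes of T cell identity and activation were among the neighbours. From a list of 116 such coding genes, chosen with earlier results of these data known, 15 of the 266 lincRNAs (5.64%) had a listed gene as nearest neighbour, against 70 of the other lincRNAs (1.253%). Listed genes are 0.527% of coding genes. Beside those given above, Gm45733 (13.6, 18.6 and 14.2 TPM) lies 263841 bases upstream of Maf, a transcription factor gene at 61.4 ± 4.82 TPM. Gm44226 (11.9, 8.61 and 7.64 TPM) and 4833403J16Rik (6.72, 8.35 and 5.35 TPM) share 649 exonic bases with each other next to Gimap5, a lymphocyte survival gene at 191 ± 4.58 TPM. Gm9889 (2.99, 2.46 and 1.93 TPM) starts 78 bases from S1pr1, the receptor that guides T cells out of lymph nodes, at 322 ± 5.59 TPM.

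The others of the 15 were low. Gm11579, 3306 bases from the costimulatory receptor gene Cd28 (147 ± 2.60 TPM), had 3.62, 3.28 and 3.07 TPM. Gm37170, upstream of Foxo1 (83.5 ± 4.90 TPM), had 2.32, 3.31 and 3.70 TPM. Gm26551, which runs across Tcf7 (260 ± 12.1 TPM) and further genes on chromosome 11, had 2.50, 2.92 and 3.18 TPM. Gm36723 and Gm47705, both with Id2 (210 ± 9.47 TPM) as neighbour, had means of 2.20 ± 0.666 and 1.79 ± 0.376 TPM. Gm31812, 932 bases from Stat4 (115 ± 3.26 TPM), had 2.20 ± 0.244 TPM, and Gm27162, 147117 bases from Ets1 (736 ± 18.8 TPM), had 1.47 ± 0.209 TPM. Of the 15, Morrbid was above its neighbour in all 3 libraries, at 73.3, 72.0 and 62.0 TPM against 39.1, 41.1 and 38.5 TPM for Bcl2l11, and the other 14 were below theirs.

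Divergent pairs, in which a lincRNA starts within 1 kb of a coding gene on the opposite strand, numbered 34 (12.8%), against 284 of 5588 other lincRNAs (5.08%). The coding partner was detected in 33 of 34, at a median of 23.4 TPM, and was the more abundant in 29. The median distance between the starts was 280 bases. The lincRNAs of these pairs had a median of 3.58 TPM and the remaining ones 4.16 TPM. Akain1, the partner of A930029G22Rik, was the partner at 0.

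Among the most abundant divergent lincRNAs, Gm20186 starts 372 bases from Lsm8. 5031425E22Rik, 172 bases from the chromatin regulator gene Kmt2e (176 TPM), had 25.9, 34.1 and 29.99 TPM. 9330175E14Rik, 747 bases from Nlrc5, the activator of MHC class I genes (201 TPM), had 24.8, 24.4 and 22.5 TPM. Gm5914, 917 bases from the insulator gene Ctcf (158 TPM), had 11.6, 13.3 and 12.3 TPM. AI480526 had a mean of 12.3 ± 1.68 TPM beside the methyltransferase gene Setd1b at 5.76 TPM, and Gm11110 had 11.5 ± 2.23 TPM beside the cytokine gene Tnfsf9, also at 5.76 TPM. These were above their partners. 5033430I15Rik (Atxn1), Fam120aos (Fam120a), Lppos (Lpp) and Gm26637 (Eif2ak2, the double-stranded RNA kinase gene) had 11.6, 8.06, 7.44 and 6.77 TPM and were below theirs by mean level.

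Promoter windows from RefSeq (GRCm38.p6, 250 bases before to 50 after the start) matched 114 of the lincRNAs, and in 78 the RefSeq start lay within 250 bases of the GENCODE start. The median number of CpG dinucleotides was 41 in 15 divergent lincRNAs and 7 in the other 63, beside 7 over all 27025 promoters and 21 in 8281 of detected coding genes. GGGCGG, the letters bound by Sp factors, was found on either strand in 12 of the 15 (80.0%) and in 19 of the 63 (30.2%), beside 35.9% of all promoters and 66.1% of those of detected coding genes. Of the 15 divergent windows 12 hold a coding exon, and of the other 63 windows 3 do. CCGGAA, an ETS core, was in 29.5% of the 78, beside 15.2% of all and 32.0% of detected coding promoters. TATAAA was in 11.5%, 14.2% and 6.48% of these sets, CCAAT in 46.2%, 37.9% and 40.0%, and the cyclic AMP element TGACGTCA in 6.41%, 1.88% and 3.50%. All 5 motifs were searched on both strands, and a match is a description of letters and not of binding. The 3 windows below, of abundant lincRNAs that form no divergent pair, show how the number varies, with each CpG in capitals. A630023P12Rik has 1, Cyrano 15 and 1810058I24Rik 25, and none of the 3 holds a coding exon. They were picked for display after their values were seen.
A630023P12Rik, chr5:110514673-110514972, plus strand: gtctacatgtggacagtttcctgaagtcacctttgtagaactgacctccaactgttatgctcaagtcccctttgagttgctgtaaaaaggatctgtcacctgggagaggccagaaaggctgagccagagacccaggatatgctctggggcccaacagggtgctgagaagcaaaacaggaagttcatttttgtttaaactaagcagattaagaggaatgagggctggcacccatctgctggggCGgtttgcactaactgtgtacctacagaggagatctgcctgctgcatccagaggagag
Cyrano, chr2:119594046-119594345, plus strand: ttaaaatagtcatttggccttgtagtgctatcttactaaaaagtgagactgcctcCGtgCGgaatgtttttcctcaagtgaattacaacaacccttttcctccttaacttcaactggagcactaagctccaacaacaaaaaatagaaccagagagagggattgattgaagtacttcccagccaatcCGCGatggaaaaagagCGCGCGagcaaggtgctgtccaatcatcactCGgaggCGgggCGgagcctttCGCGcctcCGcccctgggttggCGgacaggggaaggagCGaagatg
1810058I24Rik, chr6:35252460-35252759, plus strand: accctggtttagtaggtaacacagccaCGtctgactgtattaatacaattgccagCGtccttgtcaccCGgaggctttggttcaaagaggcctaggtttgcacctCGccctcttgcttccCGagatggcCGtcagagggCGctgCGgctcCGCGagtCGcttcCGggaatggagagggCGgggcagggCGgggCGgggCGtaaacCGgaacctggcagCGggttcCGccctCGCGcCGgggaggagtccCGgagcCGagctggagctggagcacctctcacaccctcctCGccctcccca

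Because the libraries were polyA-selected, the ends of the leading transcripts were read for the poly(A) signals AATAAA and ATTAAA in the last 50 bases, sense strand only. Either hexamer was in 117 of the 266 (44.0%), 975 of 2121 other lincRNAs with a read (46.0%) and 7614 of 10419 detected coding genes (73.1%). AATAAA alone was in 32.7%, 35.5% and 59.1%. Among the 20 most abundant, 8 had a hexamer. AW112010 and AU020206 end with AATAAA 18 and 24 bases before the annotated end, while neither Gm26917 nor Gm42418 has a hexamer in its GC-rich end. The 4 ends are printed with the hexamer in capitals.
AW112010: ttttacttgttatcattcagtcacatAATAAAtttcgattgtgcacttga
AU020206: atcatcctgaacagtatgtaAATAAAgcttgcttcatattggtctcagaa
Gm26917: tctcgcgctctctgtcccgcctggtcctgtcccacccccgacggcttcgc
Gm42418: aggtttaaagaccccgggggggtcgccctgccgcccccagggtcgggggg

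The leading transcripts of the 266 had a median of 1119 spliced bases and 2 exons, and 42 (15.8%) had a single exon. Other lincRNAs with a read had 1227 bases, 3 exons and 8.20% with a single exon, and detected coding genes had 2384 bases, 8 exons and 2.82%. The median GC content was 47.9%, 46.3% and 50.4%. GENCODE lists 1 transcript for 161 of the genes and several for 105, where the leading one held a median of 75.3% of the gene's TPM. Of 38 named genes with several transcripts, 33 had the same leading transcript by expected counts, and 5, Cyrano among them, had another.

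The spread between libraries was tested for each gene by a chi-square test of equal shares on rounded expected counts, with Benjamini-Hochberg adjustment over all genes with a summed count of at least 30. Of 262 lincRNAs tested, 123 (46.9%) had an adjusted p under 0.05, where over all 15945 genes tested 65.8% did. At this count filter the lincRNAs' share is below that background, and they also have fewer counts, from which the test draws its power. They also had to reach 1 TPM in each library, which bears on the spread of the least abundant ones. The background genes had no such minimum, so the shares at low counts are not a like comparison. At 1000 counts or more 13 of 17 lincRNAs were called (76.5%) against 74.9% of all genes, and at 100 to 300 counts 48 of 78 (61.5%) against 63.9%. At 300 to 1000 counts the values were 23 of 44 (52.3%) and 66.8%. Further apart were the shares at 30 to 100 counts, 31 of 80 (38.8%) and 57.0%, and at 10 to 30 counts, 8 of 43 (18.6%) and 51.8%. The test covers counting error alone, and the libraries varied beyond it by a factor of 11.7 in the mean chi-square over all genes. Divided by that factor, the test called 1 lincRNA, Gm26917 (adjusted p = 1.31e-08, chi-square with Benjamini-Hochberg adjustment), beside 0.734% of all genes. At the same relative spread the statistic grows with the count, and Gm26917 took the most counts of the lincRNAs. Its coefficient of variation was at the median of the 17 lincRNAs with 1000 counts or more, 5.57%. The call therefore does not mark a relative spread that is wide among those 17.

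The median coefficient of variation of TPM was 16.7% (quartiles 8.96% and 26.7%), against 7.69% in detected coding genes. The square root of edgeR's tagwise dispersion had a median of 28.2% in the lincRNAs and 13.5% over all genes. It is here a technical spread, since all libraries are of 1 biological replicate. At equal counts the values were nearer. At 10 to 30 counts it was 51.4% in the lincRNAs and 55.9% over all genes, and at 30 to 100 counts 37.4% and 39.4%. At 100 to 300 counts it was 24.4% in both, at 300 to 1000 counts 15.2% and 12.7%, and at 1000 counts or more 6.48% and 6.68%. EdgeR draws each tagwise value toward a trend over genes of like level, so this nearness is partly set by the method. The chi-square spread beyond counting error, without that trend, had medians of 15.0% and 39.4% at 10 to 30 counts. It was 15.9% and 24.4% at 30 to 100 counts, 15.5% and 16.2% at 100 to 300, and 8.34% and 8.98% at 300 to 1000. At 1000 counts or more it was 5.22% and 4.90%. The 1 TPM minimum bears on the low-count values. Libraries 1, 2 and 3 held the highest value of 81, 103 and 82 of the genes.

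**Figure D4:**
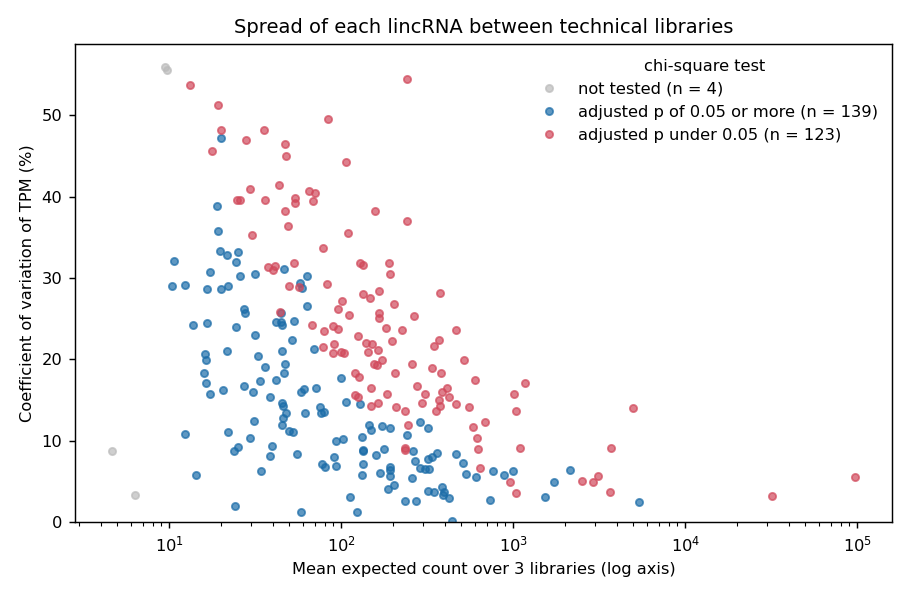
Coefficient of variation of TPM over the 3 libraries (%) against mean expected count (log axis) for each of the 266 lincRNA genes, coloured by the chi-square test. The spread narrows as counts rise, and the 123 genes called (red) mostly lie above the others at the same count.

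With at least 100 mean counts, the widest spread among those given was that of Gm26870, at 9.58, 16.5 and 5.21 TPM, a coefficient of variation of 54.5% (adjusted p = 2.46e-33, chi-square with Benjamini-Hochberg adjustment). It lies on chromosome 9 at 3000282 to 3038313 and shares 1470 of its 2692 exonic bases with other annotated genes. AC091309.4 had 4.30, 1.93 and 2.35 TPM (44.2%). Ftx had 37.0% and was highest in library 3, and Gm49602, at 1.44, 2.50 and 1.38 TPM (35.5%), was highest in library 2. No library was the high one throughout. The narrowest were Gm28942 (66.2, 66.3 and 66.1 TPM, 0.160%), Gm31374 (6.80, 6.82 and 6.67 TPM, 1.20%) and AU020206 (2.50%).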

How the data were processed

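The 3 polyA RNA-seq libraries of 1 biosample were read through GENCODE M21 (mm10). Per the file headers, the authors deposited for each gene and transcript an expected count, TPM, FPKM and a posterior SD of the count, here treated as a score. The authors' smaller gene table, deposited as integer counts, served as an alternative, where 12 of the 266 genes were listed and 11 counted. Aligner, quantifier and use of strand were not given in the sources used here. Labels do not say that libraries came from separate cultures, so p-values measure technical spread.

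From these values were computed the mean and SD over the 3 libraries, nearest coding genes from the annotation, and a chi-square test on expected counts rounded to whole numbers (2 degrees of freedom, library totals as offsets, summed count of at least 30, Benjamini-Hochberg over all genes, threshold 0.05). The test was tried on simulated counts with counting error alone. They lack the further spread of these libraries, so the trial does not show how the test behaves on it. Dispersions came from edgeR 4.0.16 and, as an alternative, DESeq2 1.42.0 under R 4.3.3. Other steps used Python 3.11.15 with scipy 1.17.1. Levels need no pseudocount, as none was tested on a log scale. Promoters and miRNAs are from RefSeq (GRCm38.p6) and transcript sequences from GENCODE M21.

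The genes and all lists were chosen with earlier results of these data known. Named are the 20 most abundant genes, those at the limit, the widest and narrowest spreads, known lincRNAs, miRNA hosts, the 10 most abundant divergent genes, neighbours of T cell genes and the 5 highest and lowest ratios to a neighbour. Alternatives covered the minimum, unit, overlap, offsets, count filter, neighbour definition and each library left out. Some named genes and neighbours are not reported here.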

Additional observations from a re-analysis of the deposited data

How the results depend on the processing

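The number of expressed lincRNA genes, 266, became 174 at a minimum of 2 TPM, 173 without genes that share exonic bases and 11 in the smaller gene table, which lists 12 of them. Without a replicate it ranged from 281 to 288. Other minimums gave 204 (FPKM) to 363 (0.5 TPM). The median level of 4.05 became 2.54 in FPKM, a different unit, and 3.74 TPM without shared exonic bases, and ranged from 3.94 to 4.03 without a replicate. Without Gm26917 and Gm42418, an alternative chosen after seeing the data, the summed level fell from 6743 to 5238 TPM and the median was 3.99. The 123 genes called between libraries became 1 with the chi-square divided by the shared overdispersion, by construction, and 4 of 11 in the smaller table. Over all genes the smaller table called 3845 of 11502. Leaving out a replicate gave 67 of 254 (without replicate 2) to 88 of 256 (without replicate 1), with fewer libraries compared. Over all genes these settings called 6069 of 14779 and 7265 of 14956. TMM, DESeq2 size factors and other count filters gave 85 of 139 (summed count of at least 300) to 125 of 262 (TMM). Over all genes these settings called 7861 of 10952 and 10471 of 15945. With no count filter 116 of 266 lincRNAs were called, and 13300 of 31917 over all genes. With no filter and in the smaller table the lincRNAs' share was thus slightly above that of all genes, not below it. The median spread of 28.2% (edgeR) was 12.5% with the square root of DESeq2's gene-wise dispersion. The edgeR value is drawn toward a trend over genes and the DESeq2 value is not, so these are unlike measures. How much of the gap this makes up was not tested. With edgeR the median was 27.9% to 31.3% without a replicate. The neighbours' median of 22.6 TPM was 20.4 by nearest start site, 27.6 within 10 kb, 24.0 with each neighbour counted once and 22.3 to 22.9 without a replicate. The share of detected neighbours, 75.9%, was 72.9% by start site, 63.2% at a minimum of 10 TPM and 75.9% to 78.6% without a replicate. In each of 201 leave-one-out values of the 67 named genes the mean moved by less than 1 SD, which the arithmetic of 3 values fixes. No paired analysis was possible because the series holds a single group. With a median of 108 counts a gene, most single lincRNA levels carry counting error that limits their order.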
